A study of Sus scrofa with 5 samples.

Results

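The genes described here encode the proteins of the cytosolic ribosome, the particle that translates mRNA in the cytoplasm. They were chosen by name, as protein-coding rows whose symbol is RPL or RPS followed by a number. A letter A, X, Y or L and further digits could follow the number. RPSA, RPLP0, RPLP1 and RPLP2 were added and the RPS6 kinases left out. RPL36AL has a longer suffix, so it fell outside the rule and was counted in a comparison list. The rule found 83 of 30822 genes listed. Of these, 80 had an FPKM (fragments normalised to gene length and to the size of the library) that reached 1 in 2 libraries at the least, and were tested among the 13087 genes that passed this filter. Large-subunit proteins account for 48 of the 80 genes and small-subunit proteins for 32.

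Ovarian follicles came from female pigs of the Indian Ghoongroo breed (Sus scrofa), and their mRNA was sequenced. Follicles labelled large gave 3 libraries (large 1, large 2 and large 3) and follicles labelled small gave 2 (small 1 and small 2). The labels name no drug and no genetic change in either group. The labels call the replicates biological. The sources used here give neither the age or number of animals, nor follicle diameters, nor whether follicles were pooled. The p-values therefore cover only the spread between these samples. Each library was counted as 1 sample, since libraries of a group differed by far more than sampling noise, with a chi-square per degree of freedom of at least 28.5. Library totals ran from 9523739 to 11507527 fragments. The granulosa cell hormone subunit INHA (2876 to 11739 FPKM) and the theca enzyme CYP17A1 (145 to 2451 FPKM) were present in all 5 libraries.

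A ribosome is built of a large and a small subunit, each holding ribosomal RNA and a fixed set of proteins, most of them needed in equal numbers. Genes for these proteins are active in nearly every cell, and their mRNAs begin with a terminal oligopyrimidine tract through which the mTOR pathway and LARP1 adjust their translation and stability together. In the growing follicle, granulosa and theca cells divide and then turn to making steroid and peptide hormones, work that draws on protein synthesis.

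Ribosomal protein mRNAs made up a large part of every library. They took 19.5% of fragments in large 1, 16.7% in large 2, 14.2% in large 3, 15.9% in small 1 and 10.3% in small 2. Depth left little counting error, with a Wilson 95% interval of 19.50% to 19.55% in large 1 and of 10.23% to 10.27% in small 2. Large 1 had the highest share and small 2 the lowest, while small 1 lay between large 2 and large 3, so the groups overlapped. As a share of the summed FPKM, which gives these short genes more weight, the values were 37.8%, 32.7% and 31.4% in large 1, 2 and 3, and 31.6% and 24.5% in small 1 and 2. The mean was 34.0% ± 3.40 (SD, n = 3) in large and 28.1% ± 5.05 (SD, n = 2) in small follicles, a difference of 5.89 percentage points against a pooled SD of 4.03. The difference was 2.32 percentage points without small 2, 9.46 without small 1 and 3.96 without large 1. In these bulk samples, a different number of cells of a type and a different amount of RNA per cell cannot be told apart.

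**Figure D1:**
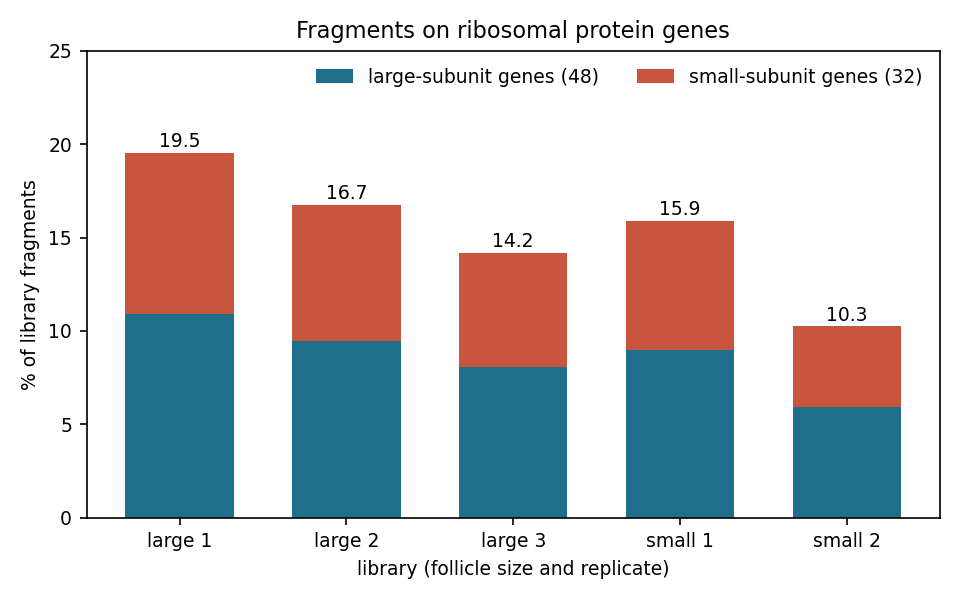
Percent of all fragments of each library (y axis) that fell on large-subunit (blue) and small-subunit (red) ribosomal protein genes, by library (x axis), with the total above each bar. The total was highest in large 1 (19.5%) and lowest in small 2 (10.3%), and small 1 (15.9%) exceeded large 3 (14.2%).

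No ribosomal protein gene was called different between large and small follicles, although the mean of each of the 80 was above that of small follicles on the log2(FPKM + 1) scale. The log2 difference, large minus small, ran from 0.06 for RPL7L1 to 0.92 for RPL22L1, with a median of 0.40, beside a median of -0.08 over all genes tested. Members are highly expressed, and the difference also went with level among other genes. Non-members with a mean of 1000 FPKM or more (40 genes) had a median of 0.23, those of 100 to under 1000 FPKM one of 0.10, those of 10 to under 100 FPKM one of -0.04 and those under 10 FPKM one of -0.13. Limma with Benjamini-Hochberg adjustment over all genes tested called 0 members higher and 0 lower at an adjusted p under 0.05, where 0.978% of all genes were called, 0.535% higher and 0.443% lower. Adjusted p values of the members ran from 0.187 to 0.968. At an unadjusted p under 0.05 limma gave 2 members, against 10.4% of all genes, and limma voom on recovered fragments also called 0, with 3 at an unadjusted p under 0.05. The median standard error of a member was 0.34, close to the size of the median difference. Because all members share the same 5 libraries and their values move together between them, the 80 values above 0 (39.9% of all genes tested were above 0) are not 80 separate pieces of evidence.

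The shared movement is seen when libraries are set side by side. Large 1 was above large 3 for 80 of 80 members, with a median log2 difference of 0.47 within the large group. Small 1 was above small 2 for 76 of 80 members, with a median log2 difference of 0.58 within the small group, which is more than the median between the groups. Between the groups, large 1 exceeded small 2 for 80 members, at a median of 0.95, but large 3 exceeded small 1 for only 32 members and was below it for 48, at a median of -0.05. The highest of the 5 values was in large 1 for 67 members, in large 2 for 7 and in small 1 for 6. Small 2 held the lowest value for 76 members.

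**Figure D2:**
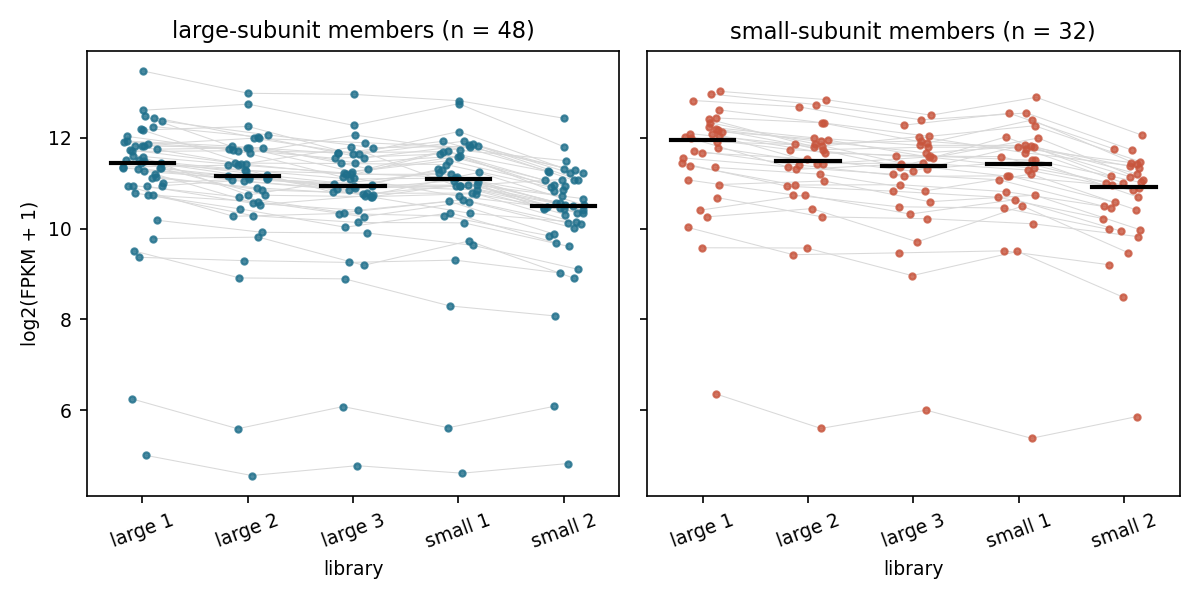
Level of each tested ribosomal protein gene as log2(FPKM + 1) (y axis) in each library (x axis), for 48 large-subunit (left) and 32 small-subunit members (right), with grey lines joining a gene's values and black bars at the library median. Medians are highest in large 1 and lowest in small 2, and the 3 genes far below the rest are the paralogs RPL26L1, RPL7L1 and RPS27L.

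The size of the difference therefore rested on single libraries. Without large 1 the median log2 difference of the members was 0.28, without small 1 it was 0.70, and without small 2 it was 0.13, with 54 members above 0 and 26 below and a median over all genes of 0.09. Without both large 1 and small 2, an alternative chosen after the data were seen, it was 0.02, with 43 members above 0 and 37 below. The median over all genes in that fit was 0.07, above that of the members. Limma called 0 members in each of these fits.

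Members of both subunits had values above 0, and the difference between the subunits was not tested. Large-subunit members had a median log2 difference of 0.37 (range 0.06 to 0.92) and small-subunit members one of 0.45 (range 0.08 to 0.61), so the large-subunit median was lower by 0.08. Median levels of large-subunit members were 2793, 2276 and 1976 FPKM in large 1, 2 and 3, and 2171 and 1454 FPKM in small 1 and 2. For small-subunit members the medians were 3955, 2868 and 2682 FPKM in large follicles and 2730.0 and 1942 FPKM in small follicles. The gap between the 2 medians, large-subunit minus small-subunit on the log2 scale, was -0.50, -0.33 and -0.44 in large follicles and -0.33 and -0.42 in small follicles, so the groups overlapped. Fragments on large-subunit genes exceeded those on small-subunit genes by a ratio of 1.26, 1.298 and 1.31 in large follicles and 1.296 and 1.37 in small follicles, again with overlap.

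Values that did not overlap between the groups were found for 26 members, all higher in large follicles, 13 in each subunit. That is 26 of 80, where 10.9% of all genes tested did not overlap with higher values in large and 15.2% with lower values. Among the large-subunit genes these were RPL5, RPL9, RPL10A, RPL12, RPL21, RPL22, RPL22L1, RPL23, RPL26, RPL35A, RPL36A, RPL37 and RPLP1. Small-subunit genes of this kind were RPS3A, RPS6, RPS7, RPS10, RPS15A, RPS16, RPS18, RPS21, RPS23, RPS24, RPS25, RPS27 and RPS27A. Since the members move together, this count describes the libraries and is not a count of independent differences.

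The member with the largest difference was RPL22L1 (gene 100627256, Sscrofa11.1 chromosome 13, 109495771 to 109499495), a paralog of the RNA-binding protein RPL22. It had 727, 482 and 475 FPKM in large 1, 2 and 3, and 314 and 269 FPKM in small 1 and 2. Every large library was above both small ones. Large follicles averaged 561 ± 144 FPKM (SD, n = 3) and small follicles 291 ± 31.5 FPKM (SD, n = 2), a 1.93-fold ratio. Its log2 difference was 0.92 ± 0.26 (SE), with a limma adjusted p = 0.187. RPL22 itself (gene 397047, chromosome 6, 67092892 to 67102086), known to restrain RPL22L1 in mammalian cells, had 2354, 1477 and 1685 FPKM in large and 1291 and 1129 FPKM in small follicles. Its groups did not overlap either, at a log2 difference of 0.58 ± 0.31 (SE, limma adjusted p = 0.594). The FPKM of RPL22L1 was 30.9%, 32.6% and 28.2% of that of RPL22 in large follicles and 24.3% and 23.8% in small follicles. The paralog was thus higher relative to its partner in all 3 large libraries, a ratio picked out after its values were seen.

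RPL23 (gene 414398, chromosome 12, 23279965 to 23285538), a large-subunit protein that can also bind the p53 inhibitor MDM2, came second. It had 4649, 2759 and 3534 FPKM in large and 1963 and 2165 FPKM in small follicles, with no overlap. The log2 difference was 0.79 ± 0.35 (SE), with a limma adjusted p = 0.480. Unlike most members it was lower in small 1 than in small 2.

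RPL9 (gene 100627537, chromosome 8, 30693198 to 30699189), a core large-subunit protein, had 1163, 967 and 956 FPKM in large and 793 and 549.7 FPKM in small follicles. Its groups did not overlap, and the log2 difference was 0.63 ± 0.27 (SE, limma adjusted p = 0.456). A transcribed RPL9 pseudogene on chromosome X, LOC100624650, went the other way, at 433, 292 and 298 FPKM in large and 580.3 and 470.1 FPKM in small follicles (log2 difference -0.64 ± 0.26, limma adjusted p = 0.414). The pseudogene held 19.3%, 16.2% and 16.7% of the fragments of the pair in large and 31.98% and 35.5% in small follicles. For every 1000000 fragments of a library, the pair together had 1645 in large 1, 1317 in large 2, 1309 in large 3, 1330.3 in small 1 and 972 in small 2, and these sums overlapped between the groups. The sources used here do not say how fragments shared by such copies were assigned, so the RPL9 level is uncertain.

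In the small subunit the 3 largest differences were those of RPS21, RPS6 and RPS9. RPS6 (gene 100038023, chromosome 1, 203444360 to 203447643), the protein phosphorylated by the S6 kinases when mTOR is active, had 3012, 2626 and 2347 FPKM in large and 2158 and 1438 FPKM in small follicles. The groups did not overlap, and the log2 difference was 0.59 ± 0.33 (SE, limma adjusted p = 0.618). RPS21, a small protein of the small subunit, had 2778, 1954 and 1812 FPKM in large and 1653 and 1192 FPKM in small follicles, without overlap, at a log2 difference of 0.61 ± 0.33 (SE, limma adjusted p = 0.595). RPS9, which binds ribosomal RNA early in assembly, had 3846, 3633 and 2557 FPKM against 2898 and 1657 FPKM. Here small 1 exceeded large 3, so the groups overlapped, and the log2 difference was 0.59 ± 0.38 (SE, limma adjusted p = 0.694).

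**Figure D3:**
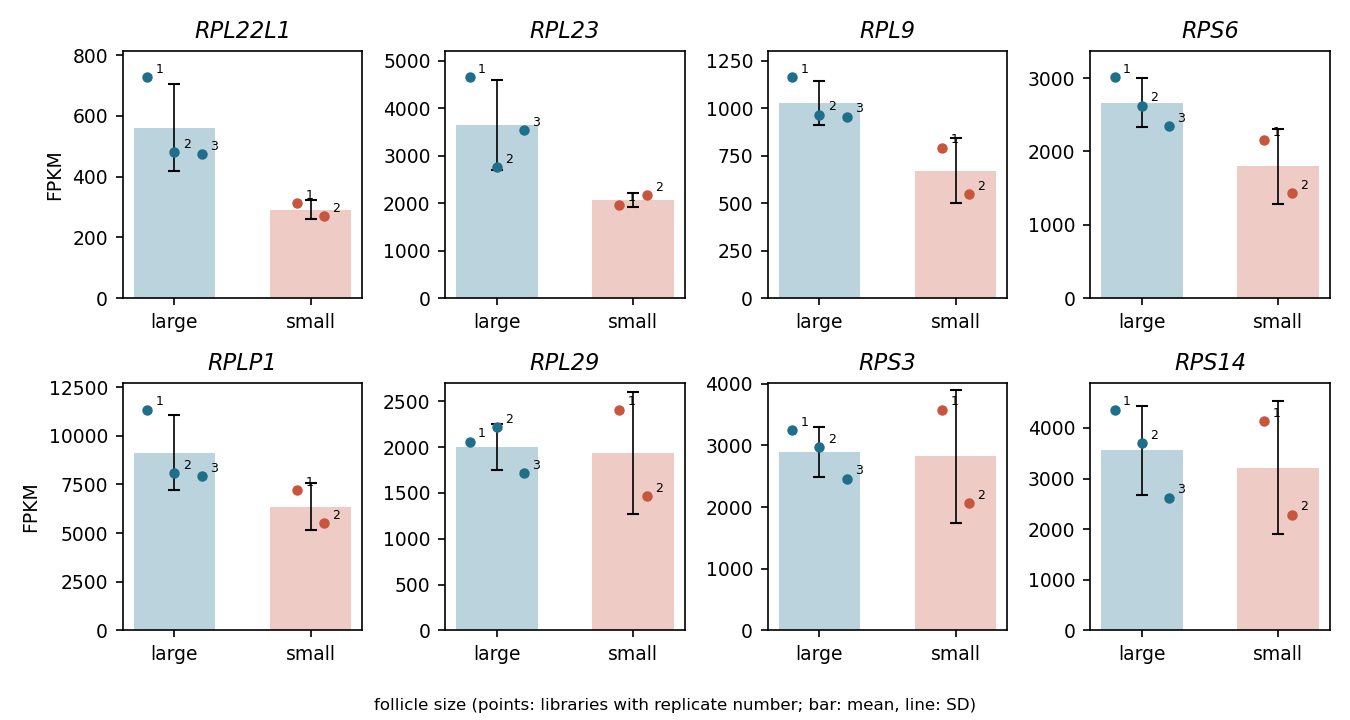
FPKM (y axes, each from 0) of 8 members by follicle size (x axes), with a point for each library marked by its replicate number, bars at the group mean and lines for the SD (n = 3 large, n = 2 small). RPL22L1, RPL23, RPL9, RPS6 and RPLP1 do not overlap between the groups, while small replicate 1 is the highest library for RPL29 and RPS3.

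At the other end of the range, means differed little and small 1 held the highest value for 2 of the 3 genes described next. RPS3 (gene 733671, chromosome 9, 9612939 to 9630404), which lines the mRNA entry channel and has a second role in DNA repair, had 3252, 2977 and 2459 FPKM in large and 3580.3 and 2061 FPKM in small follicles. The spread between the small libraries covered all 3 large ones, and the log2 difference was 0.08 ± 0.36 (SE, limma adjusted p = 0.968). RPL29, a heparin-binding large-subunit protein, had 2061, 2222 and 1721 FPKM against 2411 and 1467 FPKM (log2 difference 0.08 ± 0.33). The 2 small libraries again enclosed the large ones. RPS14, whose loss underlies a form of myelodysplastic anaemia in people, had 4365, 3695 and 2626 FPKM against 4141 and 2290 FPKM, with overlap (log2 difference 0.18 ± 0.40). Without small 2 the log2 differences were below 0 for all 3 genes, at -0.32 for RPS3, -0.28 for RPL29 and -0.25 for RPS14, each with a limma adjusted p of 0.9996.

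**Figure D4:**
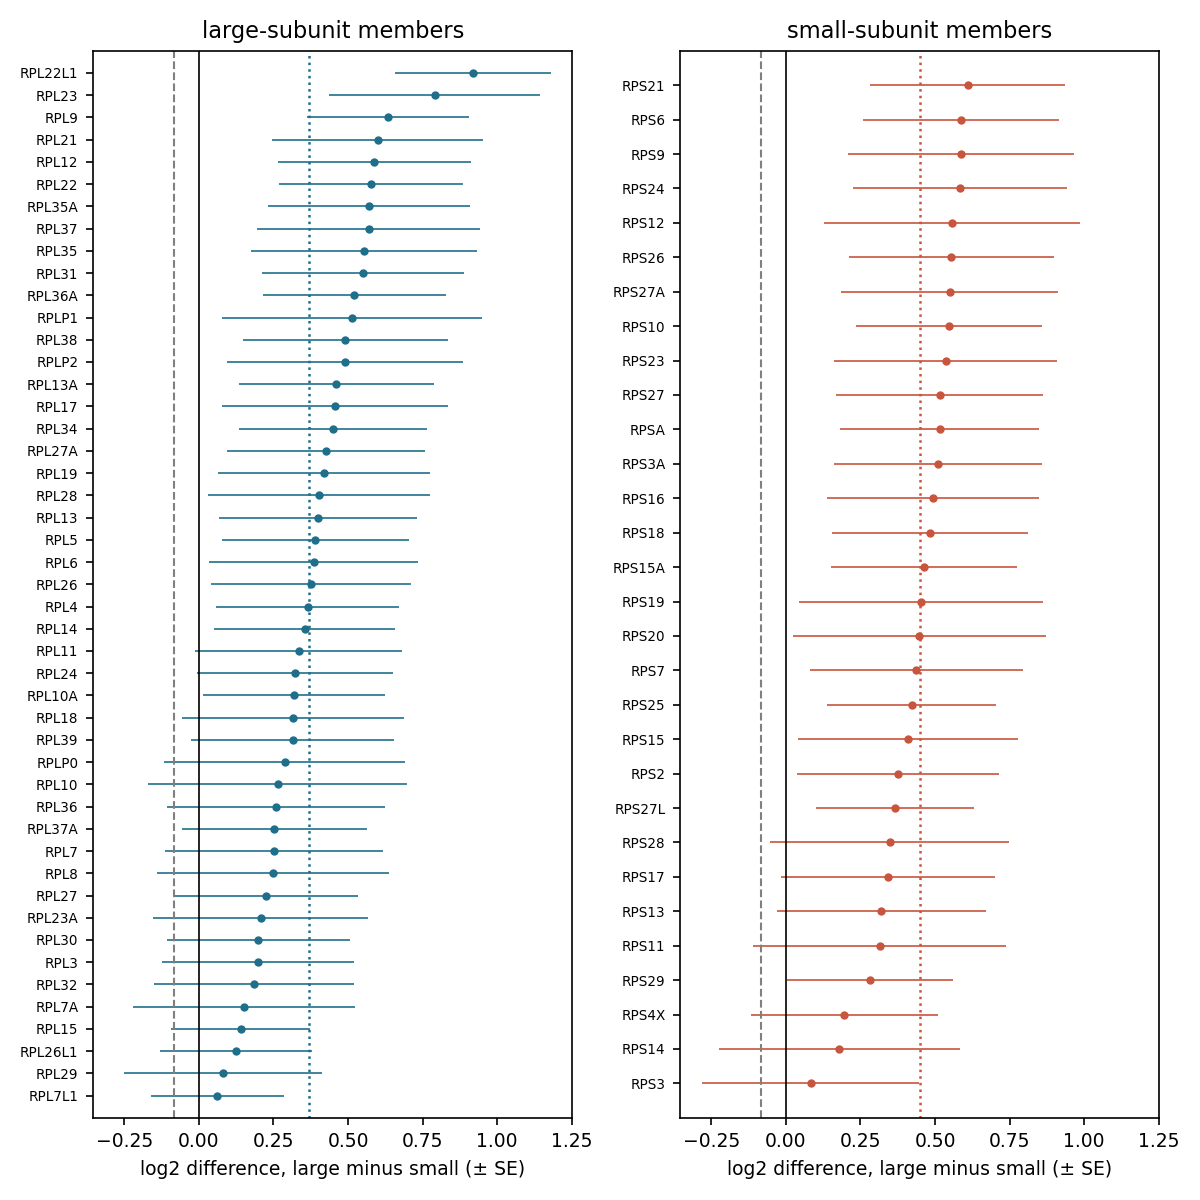
Log2 difference in FPKM + 1, large minus small follicles (x axis), with its standard error for 47 large-subunit (left) and 30 small-subunit members (right), sorted by size. All 77 points plotted lie right of 0 (solid line), dotted lines mark the medians of 0.37 and 0.45 over all tested members of each subunit, and the dashed line marks the median of all genes tested, -0.08.

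The stalk proteins RPLP0, RPLP1 and RPLP2 recruit translation factors to the large subunit. RPLP1 had the highest mean level of all members (gene 100170119, chromosome 1, 167296084 to 167298264). It had 11345, 8071 and 7939 FPKM in large and 7207 and 5512 FPKM in small follicles, without overlap (log2 difference 0.51 ± 0.44, SE, limma adjusted p = 0.789). RPLP2 had 4862, 4152 and 3011 FPKM against 3663 and 2137 FPKM (log2 difference 0.49 ± 0.40). RPLP0, the base of the stalk, had 4611, 4865 and 3174 FPKM against 4505 and 2559 FPKM (log2 difference 0.29 ± 0.40). Both overlapped between the groups.

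Other members with very high mean levels were RPS12, RPL10, RPS20 and RPS19. RPS12 had 7977, 6800.2 and 5386 FPKM in large and 5978 and 3397 FPKM in small follicles. RPS20 had 7230 (large 1), 6568 (large 2) and 4961 (large 3) FPKM against 5954 and 3444 FPKM. Small 1 exceeded large 3 for both genes. RPL10, which helps to join the subunits and lies on chromosome X, had 6230.3, 6839 and 4948 FPKM against 6888 and 3564 FPKM, so its highest value was in a small library. RPS19, whose mutation is the classic cause of Diamond-Blackfan anaemia, had 6273, 5130.3 and 4184 FPKM against 4918 and 2847 FPKM. For these 4 genes the log2 differences lay between 0.26 and 0.56, with limma adjusted p values from 0.754 to 0.905. Without small 2 RPL10 had a log2 difference of -0.21.

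Some members act outside the ribosome as well. RPL5 and RPL11, which together bind MDM2 when ribosome assembly fails, had log2 differences of 0.39 ± 0.31 and 0.33 ± 0.35 (SE, limma adjusted p = 0.769 and 0.842). RPL5 had 2799, 2474 and 2372 FPKM in large and 2238 and 1680.1 FPKM in small follicles, and RPL11 had 4178, 3374 and 3262 FPKM against 3309 and 2438 FPKM. RPL5 did not overlap between the groups, whereas small 1 passed large 3 for RPL11. RPSA, also described as a laminin receptor precursor, had 2006, 2115 and 1543 FPKM against 1704 and 1005 FPKM (log2 difference 0.52 ± 0.33, limma adjusted p = 0.694), with overlap. RPS4X, encoded on chromosome X, had 1354, 1708 and 1278 FPKM against 1593 and 986 FPKM (log2 difference 0.20 ± 0.31, limma adjusted p = 0.903). RPS4X overlapped too, and stood at -0.15 without small 2.

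In the low-level paralogs small 2 was not the lowest library. RPS27L, a paralog of RPS27 that p53 induces, had 81.3, 47.6 and 63.2 FPKM in large and 40.8 and 57.2 FPKM in small follicles, so small 2 was above small 1 and above large 2. RPS27 had 4064, 2524 and 2738 FPKM against 2281 and 1980.5 FPKM, without overlap. Their log2 differences were 0.37 ± 0.26 and 0.52 ± 0.35 (SE, limma adjusted p = 0.736 and 0.708). RPL26L1, a near copy of RPL26, had 75.1, 47.3 and 66.8 FPKM against 48.1 and 67.0 FPKM (log2 difference 0.12 ± 0.25). RPL7L1, a relative of RPL7 that works in the nucleolus, had 31.2, 22.7 and 26.5 FPKM against 23.5 and 27.4 FPKM (log2 difference 0.06 ± 0.22). RPS27L reached 1.79% to 2.89% of the FPKM of RPS27 and RPL7L1 0.558% to 1.14% of that of RPL7, in each case with the highest ratio in small 2.

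The 3 members left out by the filter lay just below it or far from it. RPL3L, a muscle form of RPL3, had 0.719, 0.552 and 0.395 FPKM in large and 0.651 and 1.24 FPKM in small follicles, from 6 to 18 fragments, so only 1 library reached 1. RPL10L, a testis form of RPL10, had 2 fragments in large 1, 3 in small 2 and 0 in the other libraries. A second row named RPL18, on chromosome 1, had 0 fragments in every library, where 3 fragments would be 0.440 to 0.531 FPKM at its listed length. The lowest members inside the filter were RPL7L1, RPS27L and RPL26L1, with means of 26.3, 58.0 and 60.9 FPKM.

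Apart from the 4 paralogs, the 76 classic members spanned mean levels from 610.1 FPKM for RPL15 to 8015 FPKM for RPLP1, with a median of 2474 FPKM and quartiles of 1840 and 3430.0. Of the 111 genes in the whole table with a mean FPKM of 1000 or more, 71 were members. The order of members by FPKM depends on the gene length used. RPS2 is listed at 5903 bases and had a mean of 621 FPKM, although it took 51869 fragments in large 1, close to the 53282 of RPL13A. The genes lie on 17 chromosomes, with 12 members on chromosome 6, 10 on chromosome 1 and 4 on chromosome X, namely RPL10, RPL36A, RPL39 and RPS4X. The X-linked members had a median log2 difference of 0.29.

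To look at the composition of the set apart from its common level, the median log2 level of the members in each library was subtracted. By construction this places the centre of the set at 0 and lowers the other genes against it, so the shares of all genes printed here are set by the subtraction and nothing is read from them. After it, 8 members had no overlap with higher values in large follicles, namely RPL9, RPL12, RPL21, RPL22L1, RPL31, RPS6, RPS23 and RPS26, where 1.34% of all genes tested did. Another 14 had no overlap with lower values, among them RPL29, RPL7A, RPL3, RPL30, RPL32, RPS3 and RPS14, where 22.0% of all genes did. Both counts lack a usable reference here, so they describe these libraries and are not read as a result about the named members. After the subtraction RPL22L1 lay farthest from 0 on the log2 scale, at 0.46, followed by RPL7L1 at -0.40 and RPL29 and RPS3 at -0.38. The profiles of large 2 and small 1 were alike across the 80 members (r = 0.64), and those of large 3 and small 1 were opposed (r = -0.89). These correlations are descriptions over members that share libraries, and centring each member on its mean pushes them below 0.

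Unnamed copies of these genes were listed apart from them. There were 60 rows with placeholder symbols described as ribosomal proteins, 36 protein-coding and 24 transcribed pseudogenes, and 20 of them passed the filter. Limma called 0 of the 20, with 17 at higher values in large follicles and a median log2 difference of 0.48. Copies took 0.0566% to 0.0850% of all fragments, or 0.365 to 0.552 fragments per 100 on the members. LOC100525692, described as RPL7A, was singled out after its values were seen. It had 99.97, 97.8 and 79.2 FPKM in large follicles, 145 FPKM in small 1 and 15.1 FPKM in small 2, a gap of 1256 against 138 fragments between the small libraries. RPL7A itself had 3703 FPKM in small 1 and 2165 FPKM in small 2, a smaller gap.

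Other lists of the translation apparatus had medians nearer to that of all genes, a contrast that was not tested. Their genes were also lower in level than the members, whose median mean level was 2314 FPKM. It was 461 FPKM for the oligopyrimidine list that follows, and 7.62 to 42.1 FPKM for the lists of the next paragraph. Non-members of such levels had median log2 differences of 0.10 (100 to under 1000 FPKM), -0.04 (10 to under 100 FPKM) and -0.13 (under 10 FPKM). Of 23 further genes whose mRNAs are known or likely to carry an oligopyrimidine tract, 14 had higher and 9 lower values in large follicles, with a median log2 difference of 0.06 and 0 calls in either direction. FAU, which encodes a ribosomal protein fused to a ubiquitin-like part, had a log2 difference of 0.46 ± 0.30 (SE), within the range of the members. FAU had 577, 557 and 405 FPKM in large and 486 and 279 FPKM in small follicles, the library order of the members. The elongation factor EEF1A1 had 10018, 12267 and 10917 FPKM against 14651 and 9362 FPKM (log2 difference -0.09 ± 0.48). PABPC1, the poly(A)-binding protein, had 244, 241 and 293 FPKM against 449 and 391 FPKM, and its groups did not overlap in the opposite direction to the members (log2 difference -0.70 ± 0.22, limma adjusted p = 0.249).

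For the lists of initiation, ribosome production and its control, limma made 0 calls in each. Among 24 initiation factors, 5 had higher and 19 lower values (median log2 difference -0.12), with EIF1AX at -0.68 ± 0.27 and EIF3A at -0.64 ± 0.29 (SE). Among 36 ribosome assembly genes, 9 had higher and 27 lower values (median -0.15). SBDS, which frees the large subunit for joining, had 27.6, 31.3 and 44.4 FPKM in large and 53.4 and 65.3 FPKM in small follicles (log2 difference -0.79 ± 0.25, limma adjusted p = 0.248). NMD3, the export adaptor of the large subunit, stood at -0.94 ± 0.36 (limma adjusted p = 0.374). Of 15 RNA polymerase I genes, which make ribosomal RNA, 8 had higher and 7 lower values (median 0.01), with POLR1D at 0.53 ± 0.24 and TAF1A at -0.25 ± 0.32. Of 21 mTOR, MYC and p53 pathway genes, 6 had higher and 15 lower values (median -0.14). The transcription factor MYCN had 1.94, 0.510 and 2.10 FPKM against 3.78 and 4.95 FPKM, without overlap (log2 difference -1.15 ± 0.36, limma adjusted p = 0.253), and the mTOR adaptor RPTOR stood at -0.59 ± 0.24 (limma adjusted p = 0.419).

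Several measures of the samples moved with follicle size or with the libraries that set the level of the members, and their part in it was not tested except where a value is given. Genes outside the set with a listed length under 1000 bases (1112 genes) had a median log2 difference of 0.21, and those of 4000 bases or more (5413 genes) one of -0.18. With the length trend of each library removed, the median of the members was 0.26, with 77 above 0. The 27 members of 1000 bases or more had a median of 0.38, and the 53 shorter ones had 0.42. Mitochondrial genes took 3.46% of fragments in large 1, 6.33% in large 2, 3.08% in large 3, 8.50% in small 1 and 4.20% in small 2, with overlap between the groups. Gene by gene, however, 13 of 13 mitochondrial mRNAs had lower values in large follicles, with a median log2 difference of -0.96, and 5 did not overlap. Over all genes tested, 39.9% had higher values in large follicles and 15.2% did not overlap with lower values. Small 1 was the highest library for each of the 13 mRNAs, so they are not 13 separate pieces of evidence. Limma called 1 of them lower, ND5 of the respiratory chain, which had 82.0, 251 and 113 FPKM in large and 650.2 and 517 FPKM in small follicles (log2 difference -2.12 ± 0.40, limma adjusted p = 0.0476). The ND5 call was lost without large 1, small 1 or small 2, with limma adjusted p values of 0.144, 0.156 and 0.102. Division genes had lower values in large follicles for 19 of 20, with summed levels of 165 to 256 FPKM in large and 260 (259.7) to 378 FPKM in small follicles and 0 calls.

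For 7 lists of cell type markers the summed level of each large library was above both small ones. They were 2183 to 4514 FPKM in large and 1050 (1049.9) to 1329 FPKM in small follicles for 11 theca markers, of which 7 were higher, and 465 to 555 against 355 to 392 FPKM for 12 endothelial markers, of which 10 were higher. The 15 myeloid markers summed to 489 to 723 against 399 to 451 FPKM with 13 higher. LYZ gave 53.7 of the 489 FPKM in large 1 and 7.48 of the 451 FPKM in small 1. Without LYZ the myeloid sum of large 1 would not exceed that of small 1. The erythroid list summed to 1006 to 1681 against 235 to 703 FPKM with 4 of 4 tested members higher. HBB alone gave 1295 of its 1310 FPKM in large 1. Stromal markers summed to 7797 to 10317 against 7223 to 7405 FPKM with 8 of 10 higher. TAGLN gave 1682 FPKM of this sum in large 1 and 1035 in small 1, and without it large 1 would not exceed small 1. Lymphocyte markers summed to 23.96 to 39.03 against 22.6 to 23.5 FPKM with 9 of 10 higher. Here CD4 had 1.83 FPKM in large 1 and 0.368 in small 1, and without it large 1 would not exceed small 1. Oocyte markers summed to 49.2 to 66.3 against 28.5 to 40.6 FPKM with 4 of 6 higher. ZP4 had 14.9 FPKM in large 2 and 6.05 in small 2, and without it the oocyte sum of large 2 would not exceed that of small 2. The granulosa list overlapped, at 7291 to 16359 against 5348 to 8097 FPKM with 6 of 13 higher. Limma called the theca enzyme CYP17A1, the endothelial water channel AQP1 and the myeloid enzyme LYZ higher and the granulosa gene INHBB lower in large follicles. With single libraries left out, CYP17A1 and LYZ stayed called, AQP1 was not called without large 1 (limma adjusted p = 0.0995), small 1 (0.198) or small 2 (0.143), and INHBB was not called without large 1 (0.0775) or small 2 (0.0817). No listed marker was at 0 in all libraries. S100A8, S100A12, CD7, MS4A1, HBE1, SLC4A1, KLF1 and FIGLA were among those listed at 0 in some.

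Scaling changed the size of the shift but made no call. The median log2 difference of the members was 0.49 with median-of-ratios scaling, 0.28 with libraries scaled to a common sum (median of all genes -0.19) and 0.40 with libraries scaled to the sum outside the members. Quantile normalization, which forces the same distribution on each library, brought it to 0.07, with 55 members above 0 and 25 below.

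**Figure D5:**
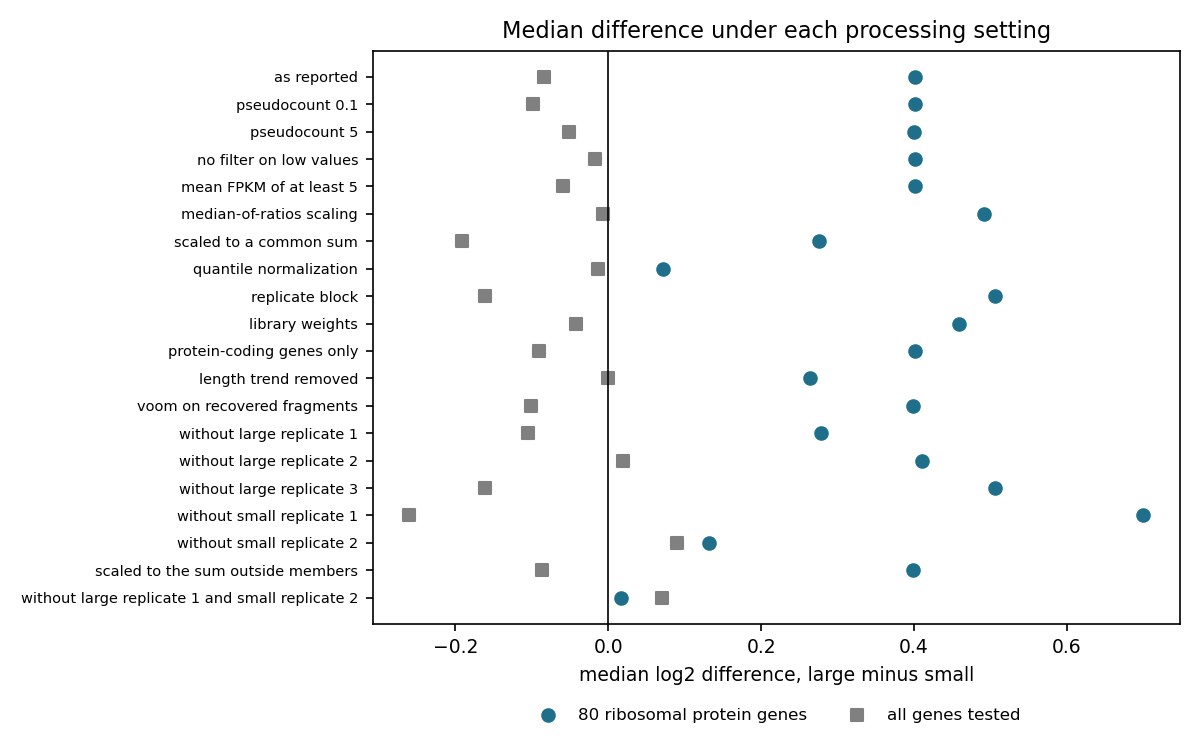
Median log2 difference, large minus small follicles (x axis), over the 80 members (blue circles) and over all genes tested (grey squares) under each processing setting (y axis). The members' median is 0.40 as reported, 0.07 with quantile normalization, 0.13 without small replicate 2 and 0.02 without large replicate 1 and small replicate 2.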

How the data were processed

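The deposited values are FPKM per gene, computed by the authors. Per the submitters' processing notes the tools were FastQC 0.11.4, Trimmomatic 0.38, HISAT2 2.0.5, StringTie 1.3.3 and featureCounts 1.5.0-p3 and the build was Sscrofa11.1. The notes list these without roles. The sources used here do not say whether counting used strand or how it treated fragments shared by near-identical genes, which matters for genes with many processed copies. Per the labels' protocols, RNA came from a TRIzol extraction and libraries from a stranded mRNA kit. The number of fragments behind each FPKM was recovered from the step that 1 fragment makes. Of 23353 genes above 0, 49.5% gave whole fragments within 0.001 at the listed length, and the other 11791 at a shorter length found by search. Recovered fragments summed to at least 99.5% of each total. Of 30822 gene identifiers, 30335, with all 83 members, were found in RefSeq's gene table for Sscrofa11.1, the source of chromosome numbers.

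Limma 3.58.1 (R 4.3.3, two-sided, mean-variance trend, follicle size as the model's term, Benjamini-Hochberg adjustment) was run on log2(FPKM + 1) of genes that reached an FPKM of 1 in 2 libraries. This scale understates changes of low genes. A ± gives the SD of an FPKM mean or the SE of a log2 difference. The fit was tested on simulated data in 20 runs, where it recovered 12.8% of 2-fold changes and a larger part of bigger ones. The share listed as false was 2.39%. Simulated noise was drawn separately for each gene, whereas the members moved together between libraries. Their median standard error was 0.34, against 0.29 over all genes tested. These shares are therefore only a rough guide for the members. The largest ratio of group means among the members was 1.93-fold, which is under 2-fold. The lack of calls among the members therefore cannot tell shifts of this size from an absence of change. Members and the 15 gene lists were chosen with earlier results of these data known. Named members were the 3 highest and 3 lowest differences of each subunit, the 6 highest levels and a fixed list of stalk, disease, p53-linked and paralog genes. From other lists the 2 smallest p values were named, with further genes added after their values were seen. RPL41 and RPL39L were not analysed here, and some genes that this rule names are not reported here. Where several rows share a symbol, the protein-coding row with the highest mean was taken. Alternatives covered pseudocounts, filters, scaling, gene length, library weights, a replicate block, voom and left-out libraries.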

Additional observations from a re-analysis of the deposited data

How the results depend on the processing

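Limma called 0 ribosomal protein genes under every alternative run, and the median log2 difference of the members stayed above 0 in each. It was 0.072 with quantile normalization (large-subunit 0.042, small-subunit 0.10), 0.017 without large 1 and small 2 (large-subunit 0.0056, small-subunit 0.078), and 0.13 to 0.70 with single libraries left out (large-subunit 0.11 to 0.68, small-subunit 0.17 to 0.74). Without large 1 and small 2 the median over all genes was 0.071, above that of the members. The cause of these changes was not tested, except that quantile normalization by construction gives every library the same distribution. Among all genes, limma called 128, against 196 with the length trend removed, 41 with a mean FPKM of at least 5, 210 with median-of-ratios scaling, 32 with no filter, 82 among protein-coding genes, 201 with quantile normalization, 70 with voom and 29 to 268 with single libraries left out (29 without large 1, 268 without large 2).

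Of 475 values of 25 named members under the alternatives, 32 values of 12 members had the sign below 0 and 0 passed the threshold. With quantile normalization the log2 difference was -0.17 for RPL10, -0.053 for RPL11, -0.27 for RPL29, -0.14 for RPLP0, -0.24 for RPS14 and -0.27 for RPS3. With the length trend removed it was -0.063 for RPL26L1, -0.10 for RPL29 and -0.0034 for RPS3. Scaled to a common sum it was -0.044 for RPL29, -0.059 for RPL7L1 and -0.043 for RPS3. Without large 1 and small 2 it was -0.24 for RPL10, -0.30 for RPL29, -0.20 for RPLP0, -0.051 for RPLP2, -0.41 for RPS14, -0.086 for RPS19, -0.061 for RPS20, -0.40 for RPS3 and -0.11 for RPS4X. With single libraries left out it ran from -0.21 to 0.74 for RPL10, -0.11 to 0.36 for RPL26L1, -0.28 to 0.44 for RPL29, -0.049 to 0.17 for RPL7L1, -0.12 to 0.70 for RPLP0, 0.10 to 0.88 for RPLP2, -0.25 to 0.61 for RPS14, 0.06 to 0.85 for RPS19, 0.05 to 0.84 for RPS20, -0.32 to 0.48 for RPS3 and -0.15 to 0.54 for RPS4X.

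Replicate numbers 1 and 2 occur in both groups. Deviations from the group means correlated at -0.00 for the pair numbered 1 and -0.45 for the pair numbered 2. With 2 small libraries, the deviations of small 1 mirror those of small 2 by construction. These values therefore cannot tell whether the numbers pair the samples. With a replicate block, which by construction drops large 3 from the contrast, the members' median was 0.51, with 0 members and 157 genes called. The median standard error of a member was 0.34 with 3 against 2 libraries.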
